A study of Mus musculus with 6 samples.

Results

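The 39 genes described here encode most proteins of glycolysis from glucose uptake to lactate, the enzymes that hold pyruvate back from or let it into the mitochondrion, and the hypoxia inducible factors (HIFs) with their oxygen sensors and a few of their targets. They were chosen by name, as entries of the deposited gene table with a mean value of at least 1 over the 6 libraries. All 39 met that level, among 15662 genes that did. Tigar stands in the table under its older symbol 9630033F20Rik. Pyruvate kinase (Pkm, Pklr) and the hexokinase Hk3 are not among the 39 and are described further below.

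The libraries were made from Lin-Sca1+cKit+ bone marrow cells of C57BL/6 mice aged 6 to 8 weeks under normal hematopoiesis, 3 from wildtype mice and 3 from Mirc11-/- mice, which carry a targeted deletion of the gene cluster for miR-23a, miR-27a and miR-24-2. Each library pooled the RNA of several mice of 1 genotype, and all 6 carry the same batch label. Polyadenylated RNA was sequenced, and a library held 15029379 to 17051541 reads in genes. Lin-Sca1+cKit+ cells are a mixture of hematopoietic stem cells and multipotent progenitors, here called HSPCs. Kit was read at 6644 to 9949.6 normalized counts and Ly6a, which encodes Sca-1, at 374 to 683, while Mpo, a granulocyte gene, reached 84479.9 to 151669. The values are normalized counts, each the number of reads over a scaling factor specific to the library, so that they compare libraries for 1 gene. Levels of different genes are compared only after division by the annotated exon length in kb.

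Glycolysis splits glucose into pyruvate in the cytosol, with phosphofructokinase as its most regulated step, and lactate dehydrogenase turns pyruvate into lactate. In oxygen, prolyl hydroxylases (Egln1 to Egln3) mark the HIF alpha subunits for the VHL ubiquitin ligase, and the asparaginyl hydroxylase Hif1an blocks their transactivation domain. In hypoxia HIF alpha pairs with Arnt at ACGTG or GCGTG motifs and raises glucose transporters, most glycolytic enzymes, pyruvate dehydrogenase kinases, and its own inhibitor Egln3. Hematopoietic stem cells are known for a glycolytic metabolism in a bone marrow niche low in oxygen, and cycling progenitors for a larger use of mitochondria.

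The deletion was seen in the precursor of the cluster. Mir23a was read at 15.8, 15.9 and 19.3 normalized counts in the wildtype libraries and at 0 in all 3 Mirc11-/- libraries, while mature miRNAs are too short for such libraries and were not measured. The third Mirc11-/- library stood apart from the other 2. On the first principal component of all genes (31.3% of the variance) it lay at -19.5, among the wildtype libraries at -26.2 to -13.5, and the other 2 lay at 54.6 and 25.5. Summed over 24 erythroid markers, of which none was at 0 in every library, the normalized counts ran from 24683 to 36125 in wildtype and stood at 66857, 60883 and 26476 in the Mirc11-/- libraries. Over 17 immediate-early genes, which also respond to handling of cells, they ran from 186936 to 279969.9 in wildtype and from 78210.0 to 130041 in Mirc11-/-. Over 10 stem and progenitor markers the sum ran from 38701 to 45783 in wildtype and from 25325 to 45203 in Mirc11-/-. The part of these differences in the values below was not tested, and fewer cells of a type cannot be told apart from less RNA per cell. Results are therefore given with and without the third Mirc11-/- library where they turn on it.

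The miRNAs encoded by the cluster deleted in the Mirc11-/- mice are shown because a direct target would carry a match to their seed. Their mature sequences are those of RefSeq (GRCm38.p6), with the seed, bases 2 to 8, in capitals.
mmu-miR-23a-3p, chr8:84208563-84208583 (+): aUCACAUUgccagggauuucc
mmu-miR-27a-3p, chr8:84208727-84208747 (+): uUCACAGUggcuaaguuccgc
mmu-miR-24-3p, chr8:84208875-84208896 (+): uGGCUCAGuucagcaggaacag
The 3 seeds differ from each other. The paper also names a paralog cluster, Mirc22, with genes for miR-23b, miR-27b and a further miR-24. The deletion described is of Mirc11 alone. miRNAs with these seeds may therefore remain in the Mirc11-/- cells, where they were not measured. A match to bases 2 to 7 of a seed, extended by base 8 or by an A after the match or by both (8mer), was looked for in the 3′ UTR of each gene, taking the longest that is annotated (GENCODE M21, GRCm38). Of the 39 genes, 11 (28.2%) held a match for miR-23a-3p, 9 (23.1%) for miR-27a-3p and 8 (20.5%) for miR-24-3p. Over the 13557 tested genes with a 3′ UTR the shares were 23.7%, 28.0% and 25.6%, and the UTRs of the 39 were longer, with a median of 1537 bases against 1111. Any match was present in 21 of the 39 (53.8%) and in 52.2% of all tested genes with a 3′ UTR.

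The matches in the oxygen sensing genes are shown, since Hif1an, Egln3 and Vhl among them had the smallest p of the 39 in the test below, with 1 match of the HIF target Bnip3l. Capitals mark the match and the lower case letters the bases beside it, and the coordinates are those of the capitals.
Hif1an, mmu-miR-24-3p, chr19:44574120-44574126 (+): caattaggaaTGAGCCAtcattaatct
Hif1an, mmu-miR-24-3p, chr19:44574341-44574347 (+): atctttctgcCTGAGCCctcgcagttg
Hif1an, mmu-miR-23a-3p, chr19:44574891-44574898 (+): ctcctttcatAATGTGAActtctcaagg
Vhl, mmu-miR-24-3p, chr6:113631523-113631529 (+): agttatgaaaTGAGCCActtgtcctgg
Egln1, mmu-miR-27a-3p, chr8:124908898-124908905 (-): cctggaggtcACTGTGAAaacaaacaaa
Egln2, mmu-miR-23a-3p, chr7:27158792-27158799 (-): tccggcctggAATGTGAAgtgactcccc
Bnip3l, mmu-miR-23a-3p, chr14:66986520-66986527 (-): ctgtttctaaAATGTGAAgctttaggac
Hif1an held 3 matches to 2 of the seeds and Bnip3l, a mitophagy receptor induced by HIF, held further matches of 7 bases. Egln3 held none. A match is a description of the letters, and no binding was measured here.

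No gene of the 39 passed the test between the genotypes. By limma over all genes, 0 of 39 had an adjusted p under 0.05 in either direction, where 5 of all 15662 genes (0.0319%) did, 1 of them higher and 4 lower in Mirc11-/-. edgeR (0.0255% of all genes called) and DESeq2 (0.779%) also called 0 of the 39. At an unadjusted p under 0.05 there were 2 of 39, Hif1an higher and Egln3 lower, against 8.24% of all genes, 4.15% higher and 4.09% lower. The same 2 genes (5.13%) were those with no overlap between the genotypes, against 12.9% of all genes, 6.42% above and 6.53% below. Both shares lie below the background. The log2 fold change of limma was below 0 for 27 of them and above 0 for 12, with a median of -0.065, while it was below 0 for 49.5% of all genes and their median was 0.0025. Without the third Mirc11-/- library, it was below 0 for 22 and above 0 for 17, and the median was -0.056. An unadjusted p under 0.05 was then reached by 7 of the 39 (17.9%), 4 higher and 3 lower, against 20.0% of all genes.

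The data nevertheless set bounds on how far these genes moved. Of the 37 genes with a mean of at least 10, 36 had a 95% interval of the fold change within 2-fold either way, and 29 had one within 1.5-fold. For 28 of the 39 the difference between the means was smaller than the larger of the group SDs, a share of 71.8% against 72.9% of all genes. The intervals of all but Hif1an and Egln3 included 0 on the log2 scale.

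**Figure D1:**
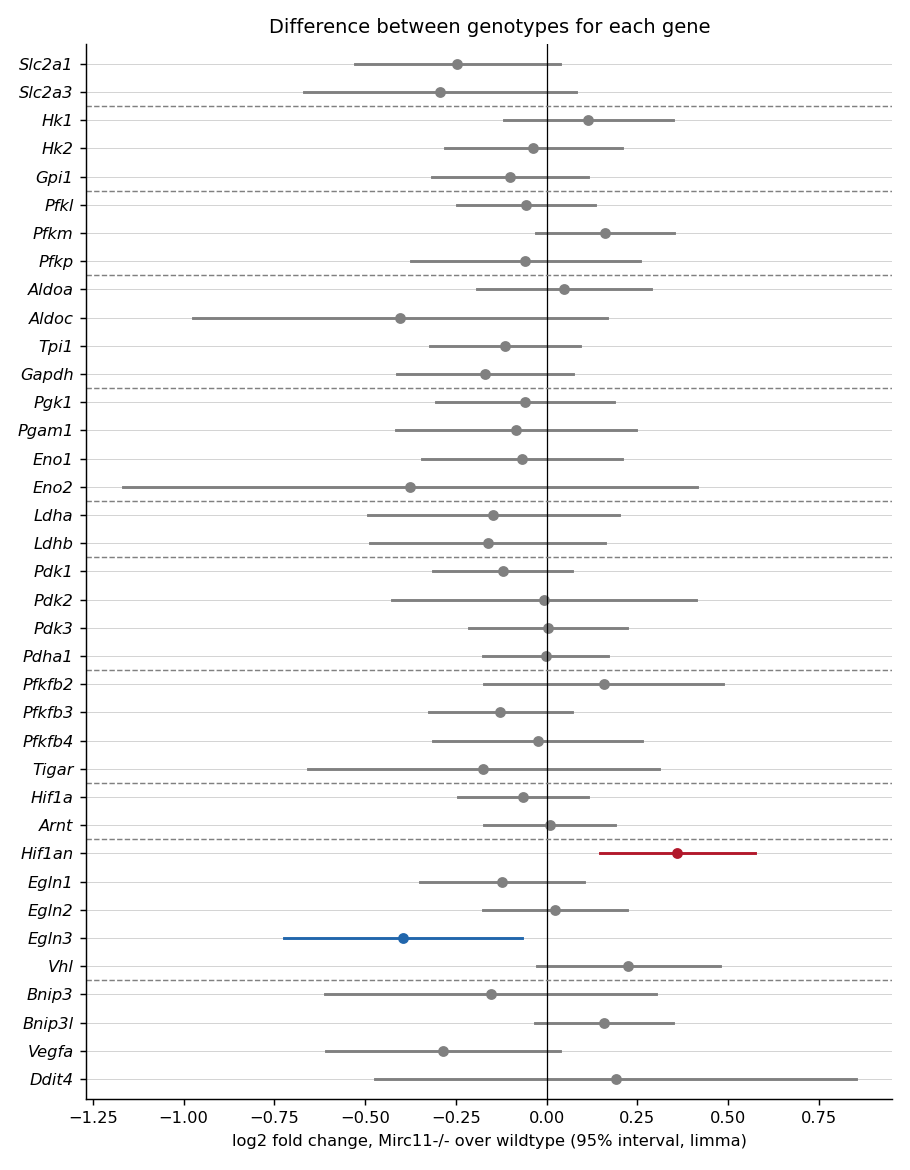
Log2 fold change of Mirc11-/- over wildtype (points) with its 95% interval from limma (lines) for the 37 genes whose mean reached 10 normalized counts, in pathway order from glucose transporters at the top to HIF targets at the bottom, with dashed lines between roles. Red and blue mark the intervals that lie wholly above or below 0, which are those of Hif1an and Egln3.

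Of the oxygen sensors, Hif1an and Egln3 had the smallest p of the 39 genes. Hif1an, the asparaginyl hydroxylase that silences HIF in oxygen, was read at 858, 762 and 921 in the wildtype libraries and 1089, 1094 and 1072 in the Mirc11-/- libraries. The Mirc11-/- libraries were all above the wildtype libraries and close to each other. The difference was 1.28-fold (log2 fold change 0.36, 95% interval 0.15 to 0.57, SE 0.0939), with an unadjusted p of 0.0041 and an adjusted p of 0.431 by limma. The adjusted p was 0.429 by edgeR, 0.141 by DESeq2 and 0.092 without the third Mirc11-/- library, where the log2 fold change was 0.37. Over the 19 alternatives it ran from 0.092 to 0.998, and the log2 fold change from 0.29 to 0.42.

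Egln3, the prolyl hydroxylase that HIF itself induces, lay the other way. Its normalized counts were 661, 864 and 677 in the wildtype libraries and 482, 546 and 645 in the Mirc11-/- libraries. The highest Mirc11-/- value, in the third library, lay just under the lowest wildtype value. The log2 fold change was -0.39 (95% interval -0.72 to -0.07, SE 0.144, unadjusted p = 0.024, adjusted p = 0.534 by limma). Without the third library it was -0.50 with an adjusted p of 0.085, and with the erythroid marker level as a covariate it was -0.19 with an adjusted p of 0.672. The mean level over the wildtype libraries was 734 ± 113 (SD, n = 3) and that over Mirc11-/- was 558 ± 82.0.

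Vhl, the substrate receptor of the ligase that removes hydroxylated HIF alpha, was read at 406, 437 and 464 in the wildtype libraries and 538, 529.6 and 462 in the Mirc11-/- libraries. The first 2 Mirc11-/- libraries were above all wildtype libraries and the third was not (log2 fold change 0.23, SE 0.111, adjusted p = 0.618 by limma). The other prolyl hydroxylases overlapped between genotypes. Egln1, the main oxygen sensor of most cells, ran over both genotypes from 872 to 1126 (log2 fold change -0.12), and Egln2 from 999 to 1172 (0.02). Egln1 lies on chromosome 8, 40.7 Mb from the deleted cluster. Per kb of exon, Egln2 held the largest share of the prolyl hydroxylase reads, with 44.5%, 38.4% and 38.6% in wildtype and 45.5%, 47.2% and 42.6% in Mirc11-/- libraries. The share of Egln3 was 26.4%, 32.1% and 27.5% in wildtype and 21.1%, 24.2% and 26.5% in Mirc11-/- libraries, so that the lowest wildtype library lay just below the highest Mirc11-/- library. With reads as such, not divided by length, the shares of Egln3 did not overlap. In the third wildtype library Egln1 (40.2%) then exceeded Egln2 (35.7%).

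**Figure D2:**
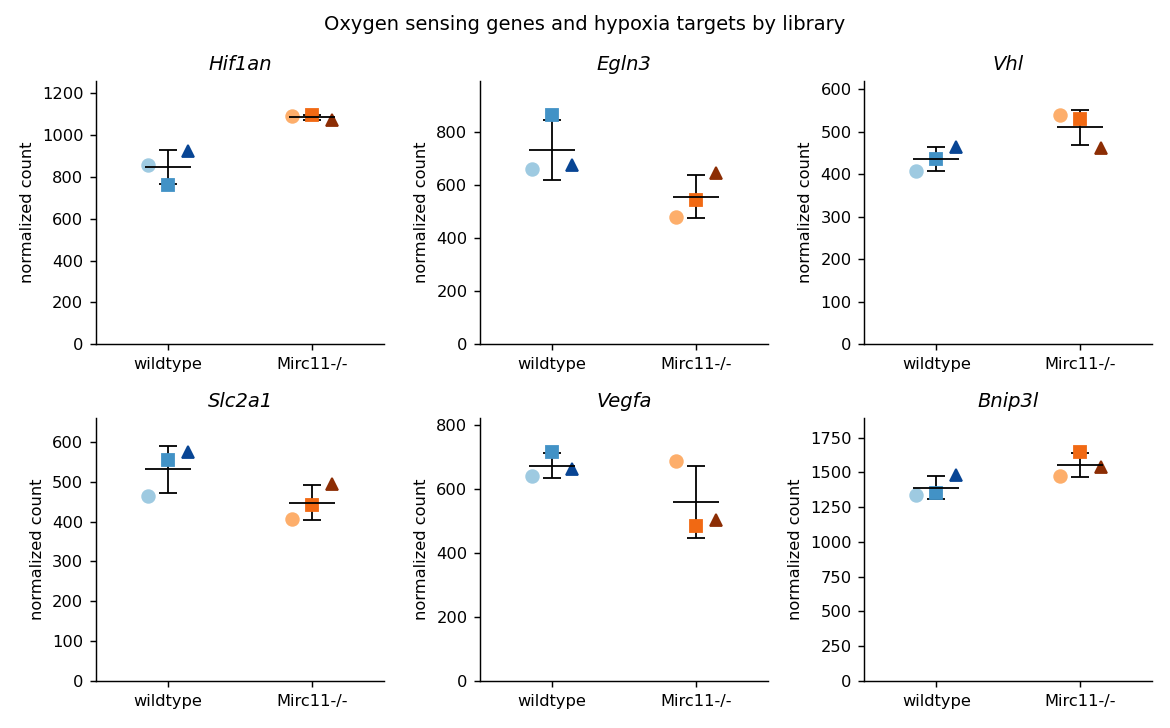
Normalized counts (vertical axes, from 0) of 3 oxygen sensing genes and 3 HIF targets in each wildtype and Mirc11-/- library, with circles, squares and triangles for replicates 1, 2 and 3. Horizontal bars are the means and error bars the SD over 3 libraries. The Mirc11-/- points lie above all wildtype points for Hif1an, below them for Egln3, and overlap them for the other 4 genes.

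The transcription factor itself varied little at the RNA level. Hif1a, the inducible alpha subunit, was read at 1338, 1392 and 1435 in the wildtype libraries and 1279, 1309.5 and 1396 in the Mirc11-/- libraries, a range of 1279 to 1435 in which the genotypes overlapped (log2 fold change -0.06, 95% interval -0.24 to 0.11). Arnt, its constitutive partner, varied from 1036 to 1129 over the 6 libraries, with a log2 fold change of 0.01 and an interval of -0.17 to 0.19. Epas1, which encodes the second alpha subunit HIF-2 alpha, was near the floor of these libraries at 0.986 to 9.35 normalized counts, too few to compare the genotypes. Per kb of exon Hif1a therefore made up 99.3% to 99.9% of the reads of these 2 alpha subunits. HIF alpha is regulated largely as a protein, which these data do not measure.

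The 4 HIF targets outside glycolysis did not share a direction. Vegfa, the angiogenic growth factor, was read at 642, 717 and 664 in the wildtype libraries and 689, 484 and 504 in the Mirc11-/- libraries (log2 fold change -0.29, SE 0.142, adjusted p = 0.623 by limma). The second and the third Mirc11-/- libraries lay below all wildtype libraries and the first among them. Bnip3l was read at 1341, 1351 and 1483 in the wildtype libraries and 1472, 1647 and 1541 in the Mirc11-/- libraries (log2 fold change 0.16, SE 0.0841, adjusted p = 0.633 by limma), and its paralog Bnip3, also a mitophagy receptor, at 193, 172 and 196 in the wildtype libraries and 125, 206 and 183 in the Mirc11-/- libraries. Per kb the share of Bnip3 in the pair was 19.7%, 17.8% and 18.3% in wildtype and 12.6%, 17.5% and 16.8% in Mirc11-/- libraries, without overlap. The counts of both genes overlapped between genotypes, and the low Bnip3 value of the first Mirc11-/- library stood outside the range of the other 5. Ddit4, a stress-induced inhibitor of mTORC1, was the most variable of the well-read genes, with 257, 324 and 640.4 in the wildtype libraries and 371, 460.1 and 465 in the Mirc11-/- libraries, so that its wildtype SD was 50.3% of the mean and its interval of -0.47 to 0.85 on the log2 scale was wide.

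Slc2a1 (GLUT1) and Slc2a3 (GLUT3) carry glucose into the cell, and both had lower means in Mirc11-/-. Slc2a1 was read at 464, 556 and 575 in the wildtype libraries and 407, 442 and 494 in the Mirc11-/- libraries. The lowest values were those of the first 2 Mirc11-/- libraries, and the third overlapped with wildtype (log2 fold change -0.25, SE 0.125, adjusted p = 0.630 by limma). Slc2a3 was read at 1496, 1440.0 and 1956 in the wildtype libraries and 1044, 1545 and 1417 in the Mirc11-/- libraries, with its lowest value in the first Mirc11-/- library and its highest in the third wildtype library (log2 fold change -0.29, SE 0.165, adjusted p = 0.640 by limma). With the erythroid marker level as a covariate the log2 fold changes were -0.073 and -0.12, and without the third Mirc11-/- library -0.32 and -0.35. Per kb Slc2a3 held 55.4% to 62.8% of the reads of the pair, with overlapping genotypes.

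**Figure D3:**
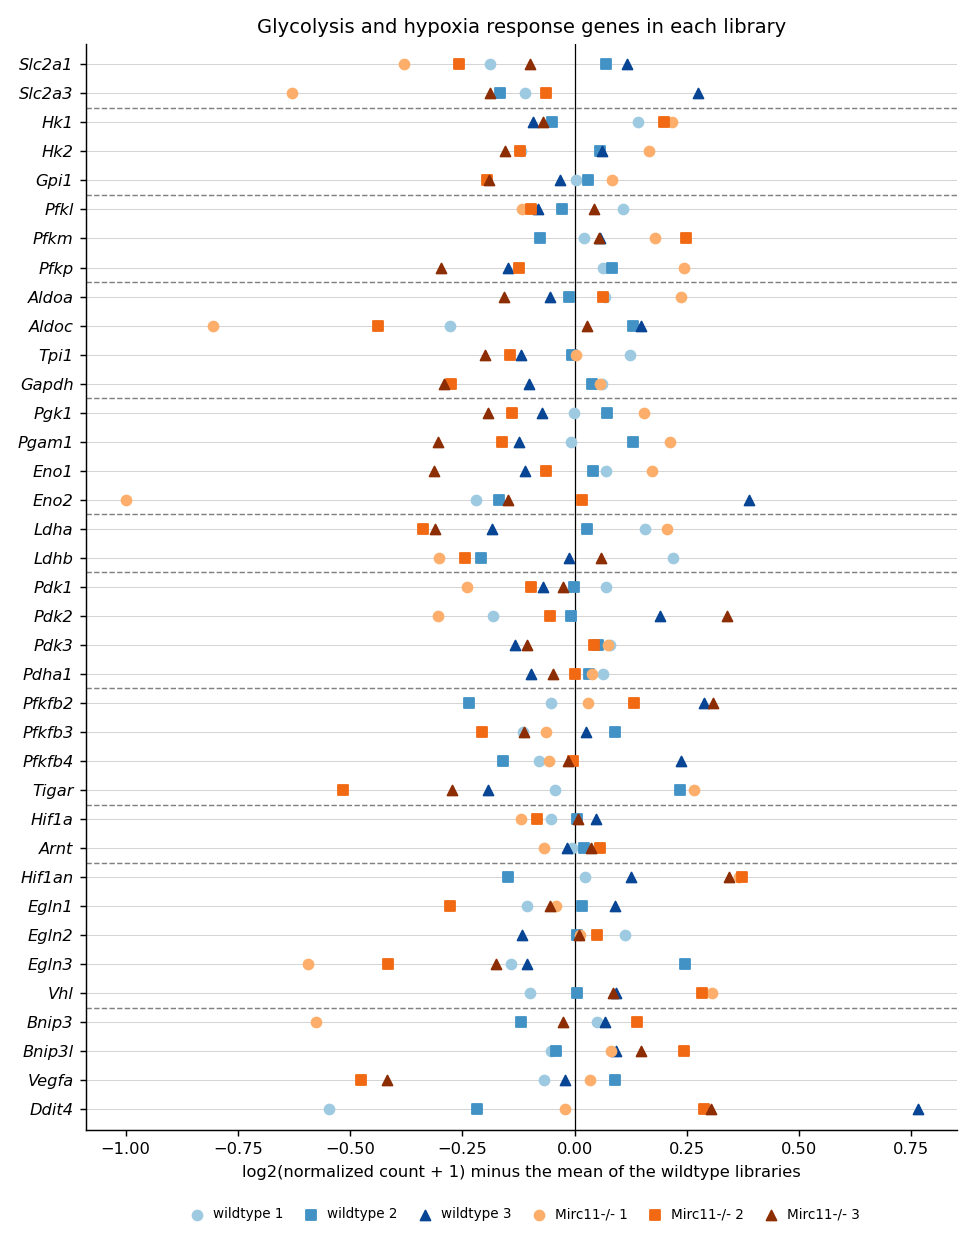
Log2(normalized count + 1) of each gene in each library, minus the mean of the 3 wildtype libraries (horizontal axis), for the 37 genes with a mean of at least 10 in pathway order. Blue symbols are wildtype and orange to brown symbols Mirc11-/- libraries. The first Mirc11-/- library (light orange circles) lies to the right for most enzymes from Hk2 to Ldha and the third (brown triangles) to the left.

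The enzymes of glycolysis proper varied more within the Mirc11-/- libraries than between the genotypes. Of the 16 enzymes among the 39 genes from hexokinase to lactate dehydrogenase, 9 had their highest value of all 6 libraries in the first Mirc11-/- library and 8 their lowest in the third. Of all genes, 25.5% were highest in the first of these and 15.5% lowest in the third. The pattern was not shared by all 16. Pfkl, Aldoc, Eno2 and Ldhb (4 of 16) were lowest in the first Mirc11-/- library, as were 24.8% of all genes. The median log2 deviation of the 16 enzymes from the wildtype mean was 0.16 in the first, -0.13 in the second and -0.17 in the third Mirc11-/- library, and 0.063, 0.029 and -0.076 in the wildtype libraries. Marker sums of myeloid cells had the same order in Mirc11-/-. Over 8 monocyte and macrophage markers, none at 0 in every library, the sum was 19115, 12625 and 7013 in the Mirc11-/- libraries against 8756 to 12898 in wildtype. Over 12 granulocyte markers, also none at 0 in every library, it was 242216, 191181 and 147685 against 171983 to 208537. Both sums were the highest of all 6 libraries in the first and the lowest in the third Mirc11-/- library, as were the enzymes by their median. The median deviation of the monocyte markers had this order too, and that of the granulocyte markers did not (0.27, 0.73 and 0.57). The part of these cells in the enzyme values was not tested. On a principal component analysis of the 37 genes with a mean of at least 10, the first component (52.3% of the variance) set the first Mirc11-/- library (-1.48) against the third wildtype library (1.05), and did not separate the genotypes. The second component (26.1%) did. The wildtype libraries lay on it at 0.51, 0.93 and 0.14 and the Mirc11-/- libraries at -0.53, -0.75 and -0.29. This separation was not tested, and with 3 libraries per genotype an axis can separate the groups by chance.

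**Figure D4:**
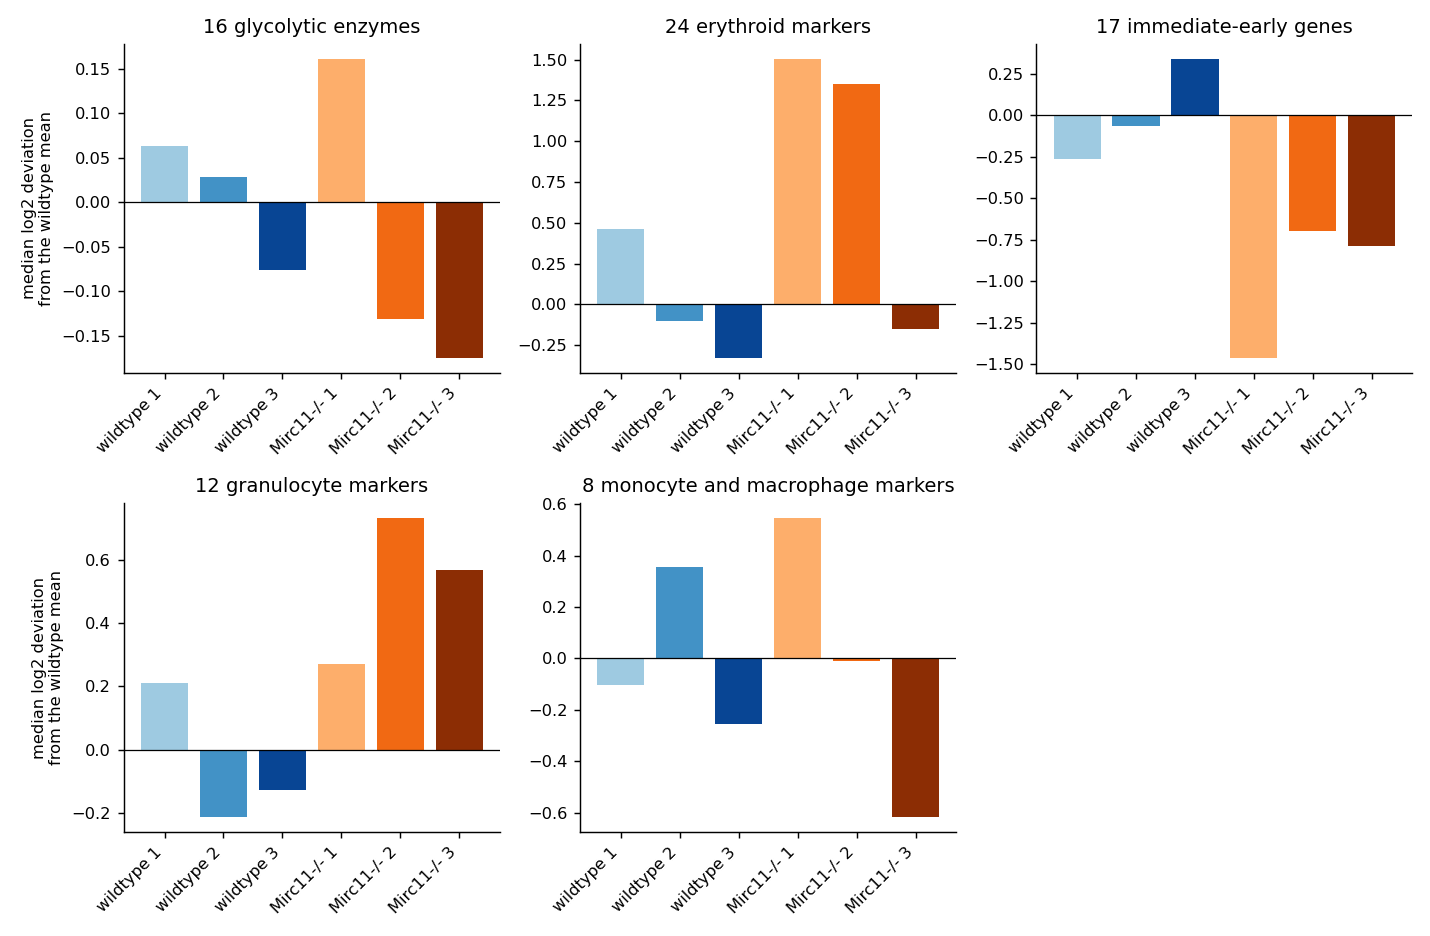
Median log2 deviation from the wildtype mean (vertical axes, which differ in scale between panels) in each library, over 16 glycolytic enzymes, 24 erythroid markers, 17 immediate-early genes, 12 granulocyte markers and 8 monocyte and macrophage markers. The enzymes and the monocyte markers are highest in the first and lowest in the third Mirc11-/- library, the granulocyte markers lie above 0 in all 3, the erythroid markers are high in the first 2, and the immediate-early genes are low in all 3.

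Ldha, which makes lactate and is a classical HIF target, shows this spread. It was read at 9207, 8419.7 and 7275 in the wildtype libraries and 9536, 6540.4 and 6664 in the Mirc11-/- libraries. The first Mirc11-/- library was the highest of the 6 and the second the lowest, and the log2 fold change was -0.15 with an interval of -0.49 to 0.20. Gapdh, the oxidative step, was read at 6295, 6191 and 5622 in the wildtype libraries and 6270.3, 4983 and 4924 in the Mirc11-/- libraries (log2 fold change -0.17, SE 0.107, adjusted p = 0.671 by limma), with the second and the third Mirc11-/- libraries below all wildtype libraries and the first among them. With the erythroid covariate Gapdh had a log2 fold change of -0.31 (adjusted p = 0.50 by limma). In that fit an unadjusted p under 0.05 was reached by 7 of the 39 genes, 6 of them lower and 1 higher, against 8.96% of all genes, 4.59% lower and 4.37% higher, and the adjusted threshold by 0 of the 39.

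Aldoa, the muscle-type aldolase used by most cells, was read at 8516, 8049.6 and 7818 in the wildtype libraries and 9577, 8487 and 7280.1 in the Mirc11-/- libraries, and Eno1, the enolase of most tissues, at 3526, 3457 and 3109.8 in the wildtype libraries and 3784, 3216 and 2705 in the Mirc11-/- libraries. In both genes the 3 Mirc11-/- values spanned the wildtype range, with the first above and the third below it. Pgk1, an ATP-forming kinase, had the same order in Mirc11-/-, at 1262, 1029 and 991 against 1078 to 1191 in wildtype. So had the mutase Pgam1, at 618, 477 and 432 against 489 to 584. Their log2 fold changes were 0.05, -0.07, -0.06 and -0.08. Without the third Mirc11-/- library those of Eno1, Pgk1 and Pgam1 turned to 0.054, 0.0081 and 0.025, so their sign rests on that library.

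Eno1 reads are uncertain, because Eno1b, a near-identical copy listed separately, was read 1.97 to 5.95 normalized counts above it in every library. Reads of Gapdh, Aldoa, Ldha, Pgk1, Pgam1 and Tpi1 could likewise be shared with processed pseudogenes of these genes, which mammalian genomes hold in number. The upper steps were as variable. Gpi1, glucose-6-phosphate isomerase, had the most reads of the 39, from 10664 to 12933, with a wildtype SD of 2.20% and a Mirc11-/- SD of 11.4% of the mean. Tpi1, triosephosphate isomerase, ran from 5297 to 6634 (log2 fold change -0.11, interval -0.32 to 0.09).

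Promoters are shown for Ldha, as an enzyme highest in the first Mirc11-/- library, and for Egln3 and Hif1an, as the genes with the smallest p. The windows run from 250 bases before to 50 after the annotated start (RefSeq, GRCm38.p6), read along the gene's strand. Capitals mark ACGTG on either strand, the HIF core motif in its first form, and CACGTG counts as 2 matches because it reads ACGTG on both strands.
Ldha, chr7:46845554-46845853 (+): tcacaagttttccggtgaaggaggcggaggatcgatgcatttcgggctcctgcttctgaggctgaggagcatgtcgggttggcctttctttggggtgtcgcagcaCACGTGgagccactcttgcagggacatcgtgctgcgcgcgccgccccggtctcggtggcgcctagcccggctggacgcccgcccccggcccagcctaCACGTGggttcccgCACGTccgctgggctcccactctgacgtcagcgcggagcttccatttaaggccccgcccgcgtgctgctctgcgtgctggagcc
Egln3, chr12:54203825-54204124 (-): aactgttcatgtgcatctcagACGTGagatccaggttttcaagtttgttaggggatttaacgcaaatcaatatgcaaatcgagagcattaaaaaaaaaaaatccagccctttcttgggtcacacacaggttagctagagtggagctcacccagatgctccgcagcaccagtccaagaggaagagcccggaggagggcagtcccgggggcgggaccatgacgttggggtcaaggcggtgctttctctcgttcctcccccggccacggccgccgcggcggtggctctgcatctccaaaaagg
Hif1an, chr19:44562604-44562903 (+): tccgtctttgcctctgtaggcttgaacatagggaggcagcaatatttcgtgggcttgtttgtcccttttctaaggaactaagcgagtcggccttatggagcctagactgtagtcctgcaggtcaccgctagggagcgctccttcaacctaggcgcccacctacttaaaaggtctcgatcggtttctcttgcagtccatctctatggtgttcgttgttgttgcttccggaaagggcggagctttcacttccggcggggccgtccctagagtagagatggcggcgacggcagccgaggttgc
The Ldha window shown held 5 matches to ACGTG and 2 to GCGTG, that of Egln3 held 1 match to ACGTG, and that of Hif1an held neither. Ldha has a second annotated window, chr7:46846832-46847131 (+), which held 0 matches to ACGTG and 2 to GCGTG. Of the 36 genes with a promoter entry, 21 (58.3%) had ACGTG in at least 1 of their windows and 24 (66.7%) had GCGTG. Of 11291 tested genes with an entry, 28.0% and 53.1% did, and of all 32851 windows of this length 19.6% and 32.4%. Since many of the 39 genes were listed as HIF targets, the first share is a description of the list. Bnip3, Hif1a, Hk2, Pgk1, Pfkfb3 and Egln2 were among the genes with 2 or more matches to ACGTG in 1 window.

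Hexokinase, which traps glucose in the cell, was read mostly as Hk1 and Hk3. Hk1 was read at 5629.9, 4933 and 4788 in the wildtype libraries and 5932, 5857 and 4864 in the Mirc11-/- libraries, with overlapping genotypes (log2 fold change 0.12, interval -0.12 to 0.35). Hk2, the inducible form and a HIF target, ran from 1257 to 1572 (-0.04). Per kb of exon the share of Hk1 among these 3 genes was 27.3%, 23.7% and 25.2% in wildtype and 26.5%, 33.5% and 34.1% in Mirc11-/- libraries. The second and the third Mirc11-/- libraries were above the wildtype range and the first was within it. Hk3, a form of myeloid cells, is not one of the 39 genes and is named after its values were seen. Its share was 63.8%, 66.3% and 63.8% in wildtype and 63.5%, 56.0% and 53.3% in Mirc11-/- libraries, all 3 below the wildtype values. Its normalized counts were 5681, 5944 and 5222 in the wildtype libraries and 6139, 4233 and 3281 in the Mirc11-/- libraries (log2 fold change -0.35, adjusted p = 0.637 by limma), and with the erythroid covariate the log2 fold change was -0.71 (adjusted p = 0.114 by limma).

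Of the phosphofructokinases, Pfkm, the muscle form, was read at 1632, 1523 and 1672 in the wildtype libraries and 1821, 1909.8 and 1669 in the Mirc11-/- libraries (log2 fold change 0.16, SE 0.0841, adjusted p = 0.633 by limma). Its first 2 Mirc11-/- values were above the wildtype range and the remaining one was within it. Pfkl, the liver form, ran from 2958 to 3457 (-0.06) and Pfkp, the platelet form, from 1082 to 1576 (-0.06). Per kb the share of Pfkm was 44.0%, 44.1% and 47.9% in wildtype and 49.3%, 51.4% and 46.5% in Mirc11-/- libraries, and that of Pfkl was 40.1% to 46.7%. Undivided by length, Pfkl held 46.6% to 54.6% and Pfkm 25.0% to 31.2% of the phosphofructokinase reads. On neither basis did either share separate the genotypes.

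The enzymes that make and remove fructose-2,6-bisphosphate, the activator of phosphofructokinase, were as close. Pfkfb3, the form with the strongest kinase activity, was read at 1337, 1540.2 and 1472 in the wildtype libraries and 1386, 1254 and 1339 in the Mirc11-/- libraries (log2 fold change -0.13, SE 0.0872, adjusted p = 0.695 by limma). Pfkfb2 had a higher mean in Mirc11-/- (587 ± 111 to 649 ± 64.2, mean ± SD, n = 3) and Pfkfb4 a similar one (430.0 ± 64.7 to 419.6 ± 8.09). Tigar, a phosphatase induced by p53, ran from 172 to 297, and both extremes were Mirc11-/- libraries. Per kb Pfkfb3 held 48.7% to 58.2% of the reads of the 3 Pfkfb genes.

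The minor isoforms were low throughout. Aldoc, the brain-type aldolase, was read at 91.7, 122 and 124 in the wildtype libraries and 63.4, 82.0 and 114 in the Mirc11-/- libraries (log2 fold change -0.40, SE 0.251, adjusted p = 0.668 by limma). Its lowest value was in the first Mirc11-/- library and its log2 fold change was -0.62 without the third Mirc11-/- library and 0.020 with the erythroid covariate. Eno2, the neuronal enolase, ran from 18.0 to 48.6. Per kb Aldoc made up 0.587% to 1.39% of the 2 aldolases and Eno2 0.540% to 1.76% of the 2 enolases. Ldhb, which favours pyruvate over lactate, held 9.94% to 16.9% of the lactate dehydrogenase reads, lowest in the first and highest in the third Mirc11-/- library.

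Pyruvate dehydrogenase kinases switch off the entry of pyruvate into the citric acid cycle. Pdk1, the form induced by HIF, was read at 2601, 2476 and 2359 in the wildtype libraries and 2099, 2315 and 2435 in the Mirc11-/- libraries (log2 fold change -0.12, SE 0.0843, adjusted p = 0.702 by limma). The third Mirc11-/- library lay within the wildtype range and the other 2 below it. Pdk3 overlapped between the genotypes (1047 ± 82.1 to 1049 ± 69.1), as did Pdk2 (267 ± 34.7 to 269 ± 61.8). Pdk4, the starvation-induced form, was near the floor at 0 to 7.27. Per kb Pdk3 held 47.4% to 56.0% and Pdk1 35.2% to 39.8% of the kinase reads. With reads not divided by length the order was reversed, with 25.9% to 32.2% for Pdk3 and 61.5% to 66.0% for Pdk1. Their substrate Pdha1, the catalytic alpha subunit of pyruvate dehydrogenase, was among the steadiest genes, with 4019.5, 3934 and 3598 in the wildtype libraries and 3950.4, 3851 and 3719 in the Mirc11-/- libraries and an interval of -0.17 to 0.17 on the log2 scale.

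**Figure D5:**
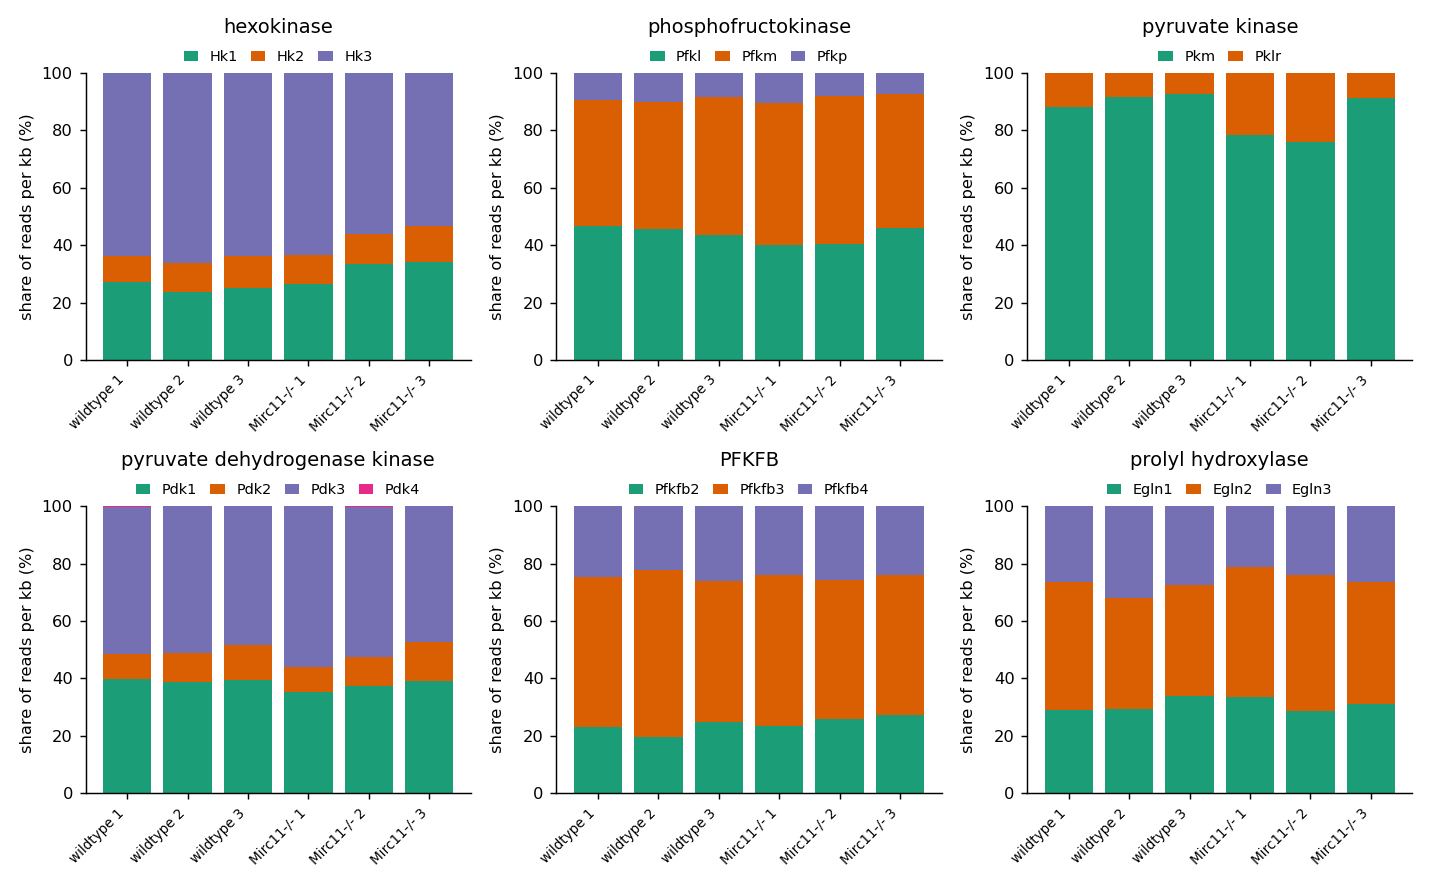
Share of each isoform (vertical axis, percent of the reads per kb of exon of the genes named in each panel) in each library, for 6 enzyme steps. The genotypes overlap in every share shown but that of Hk3, which is lower in the 3 Mirc11-/- libraries, and the share of Pklr is high in the first 2 Mirc11-/- libraries.

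Among the 39 genes the order of levels per kb of exon ran from Aldoa (2792 ± 122 normalized counts per kb in wildtype, mean ± SD, n = 3) over Ldha (2508 ± 293), Tpi1 (2216 ± 188), Gpi1 (1892 ± 41.7) and Gapdh (1460.4 ± 87.6) to Eno2 (8.00 ± 2.03), Pdk4 and Epas1. Outside the 39, the wildtype mean of Pkm (2949 ± 127) was above that of Aldoa. Those of Hk3 (1525 ± 99.1) and the uncertain Eno1b (1795 ± 118) were above that of Gapdh. Within each wildtype library Aldoa lay above Ldha and Ldha above Tpi1, though the ranges over the wildtype libraries overlapped for both pairs. Aldoa, Ldha, Tpi1, Gpi1 and Gapdh were thus read at levels per kb above those of Hif1a (235 ± 8.21), Slc2a3 (225 ± 39.1), Slc2a1 (152 ± 16.8) and Hif1an (128 ± 12.1). Not all enzymes were. Hk2 (235 ± 16.5) was level with Hif1a, and Pfkp (99.5 ± 8.59) lay below Hif1an. These orders depend on the length of all annotated exons, and which transcripts were present was not measured. Pfkp was divided by 13.4 kb and Hif1an by 6.61 kb, and undivided their wildtype means were 1333 and 847.

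Another 98 genes of the same pathways, listed from general knowledge, gave a similar picture. Of these, 88 could be tested and 0 had an adjusted p under 0.05 by limma. At an unadjusted p under 0.05 by limma, 3 of the 88 were higher and 4 lower, against 4.15% and 4.09% of all genes. Of the 88, 7 (7.95%) did not overlap between genotypes, against 12.9% of all genes. The median log2 fold change was 0.0041, with 45 genes above 0 and 43 below. Wsb1, a HIF-induced ubiquitin ligase component, had the smallest p, with 3534, 4102 and 3716 in the wildtype libraries and 2734, 2901 and 3035 in the Mirc11-/- libraries (log2 fold change -0.39, SE 0.0841, adjusted p = 0.406 by limma). DESeq2 called it (adjusted p = 0.030), as did limma without the third Mirc11-/- library (0.045). Of all genes these fits called 0.779% and 2.75%.

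Selenbp1, a selenium-binding protein, was read at 699, 587 and 665 in the wildtype libraries and 956, 1009 and 742 in the Mirc11-/- libraries (log2 fold change 0.46, SE 0.133, adjusted p = 0.451 by limma), and Gfpt1, the entry to the hexosamine pathway, at 1141, 1094 and 1274 in the wildtype libraries and 1530.2, 1393 and 1386 in the Mirc11-/- libraries (log2 fold change 0.30, SE 0.0905, adjusted p = 0.475 by limma). Neither overlapped between genotypes. Fbp1, which reverses phosphofructokinase, was read at 128, 119 and 133 in the wildtype libraries and 120.1, 386 and 708 in the Mirc11-/- libraries, high in the second and the third Mirc11-/- libraries only (log2 fold change 1.33, SE 0.520, adjusted p = 0.566 by limma). Without the first Mirc11-/- library it was called, with a log2 fold change of 2.04 and an adjusted p of 0.030, and with the erythroid covariate its log2 fold change was 2.30 (adjusted p = 0.099 by limma). Vldlr, a lipoprotein receptor, was read at 903, 827 and 1212 in the wildtype libraries and 620.4, 788 and 806 in the Mirc11-/- libraries, without overlap (log2 fold change -0.40, SE 0.160, adjusted p = 0.573 by limma). Siah2, a ubiquitin ligase for the prolyl hydroxylases, was read at 351, 524 and 635 in the wildtype libraries and 375, 358 and 304 in the Mirc11-/- libraries, with overlapping genotypes (log2 fold change -0.51, SE 0.205, adjusted p = 0.573 by limma).

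Pyruvate kinase closes the pathway. Pkm, the form of most proliferating cells, was read at 15349, 14813 and 14083 in the wildtype libraries and 14406, 12701 and 13446 in the Mirc11-/- libraries (log2 fold change -0.13, SE 0.0832, adjusted p = 0.685 by limma). Pklr, the red cell and liver form, chosen here after its values were seen, was read at 1320.5, 874 and 708 in the wildtype libraries and 2596, 2595 and 834 in the Mirc11-/- libraries. The first 2 Mirc11-/- libraries, those with high erythroid markers, stood far above the other 4 (log2 fold change 0.93, SE 0.414, adjusted p = 0.600 by limma). Without the third Mirc11-/- library its log2 fold change was 1.47 with an adjusted p of 0.016, and with the erythroid covariate it was -0.0093 with an adjusted p of 0.989. Per kb the share of Pklr in pyruvate kinase was 11.7%, 8.36% and 7.21% in wildtype and 21.8%, 24% and 8.75% in Mirc11-/- libraries. Without the third Mirc11-/- library Minpp1, a phosphatase that acts on 2,3-bisphosphoglycerate of red cells, was also called (0.82, adjusted p = 0.034), with 2462, 1962 and 1557 in the wildtype libraries and 3483, 3444 and 1861 in the Mirc11-/- libraries. With the erythroid covariate its log2 fold change was -0.014 (adjusted p = 0.977 by limma), against 0.52 in the fit without it. Selenbp1 (0.60, adjusted p = 0.026 by limma) and Narf, a binding partner of prelamin A (0.45, adjusted p = 0.0498), completed the pathway genes called higher there. With the covariate the log2 fold changes of Selenbp1 and Narf were 0.25 (adjusted p = 0.552) and 0.058 (adjusted p = 0.897). Without the third Mirc11-/- library, Pklr, Minpp1, Selenbp1, Narf and the lower Wsb1 were all the genes of the 88 called in either direction. Of all 15662 genes, 430 (2.75%) were called in that fit. Minpp1 and Narf are named for these calls, after their values were seen.

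Seed matches and fold changes were set side by side as a description only, because miRNAs with these seeds may remain in the Mirc11-/- cells. Of the 21 genes with a match to any of the 3 seeds, 10 had a log2 fold change above 0 and 11 below, with a median of -0.0027. Of the 18 with none, 2 had one above 0 and 16 below, with a median of -0.093. Over all tested genes the medians were 0.017 for 7077 genes with a match and -0.0092 for 6480 without one. The 18 genes include 10 of the 16 glycolytic enzymes. Several of these, though not Aldoc, were highest in the first Mirc11-/- library as described above, so the 18 are not all independent of each other.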

How the data were processed

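The deposited table carries FPKM in its name. The authors' signal per gene in it is a number of reads over a scaling factor specific to each library, where a single read counts 0.946 to 1.04. Of the values above 0, 100% were whole multiples of this step within 0.001. Values were not divided by gene length. The submitters' notes name STAR, Cufflinks and mm10, while the study's supplementary methods name a human build. Tool versions and the gene annotation were not given in the sources used here. Its 23999 entries were filtered to 15662 genes with a mean of at least 1, and genotypes were compared by limma 3.58.1 (R 4.3.3) on log2(value + 1), allowing for a mean-variance trend (two-sided test, Benjamini-Hochberg adjusted p under 0.05). The 19 alternatives varied the pseudocount (0.1, 0.5), the minimum (none, 5, 10), the scaling, the trend, the tool (edgeR 4.0.16, DESeq2 1.42.0 on recovered reads), a replicate block and an erythroid covariate, and left out each library. The fits were tested on simulated data. The 39 genes and all lists were chosen with earlier results of these data known. All 39 are reported, the 12 of smallest p with full statistics. Of the pathway genes, the rule named the 6 of smallest p and Pkm. Hk3, Pklr, Minpp1 and Narf were added after their values were seen. Libraries of 1 genotype differed beyond sampling noise. Each pooled several mice, so p-values measure the spread between these pools. Shares and levels per kb used all annotated exons (GENCODE M21) and depend on that length.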

Additional observations from a re-analysis of the deposited data

How the results depend on the processing

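None of the 19 alternatives called any of the 39 genes in either direction, and the lowest adjusted p over them was 0.085 (Egln3 without the third Mirc11-/- library). Of 738 refitted log2 fold changes of the 39 genes, 700 kept their direction, and 21 genes kept it throughout, Hif1an, Egln3 and Vhl among them. The others crossed 0. With the erythroid covariate these were Hk1 -0.061, Aldoa -0.14, Aldoc 0.020, Pdk2 0.32, Pdk3 -0.11, Pfkfb4 0.025, Hif1a 0.0073 and Egln2 -0.021. With quantile normalization they were Pdk2 0.0067, Pdk3 -0.0028 and Pdha1 0.012, with edgeR Pdk2 0.0089 and Pdk4 0.015, and with DESeq2 Pdk2 0.0096 and Pdk4 0.038. With 1 library left out, the log2 fold changes ran from -0.14 to 0.023 for Hk2, -0.21 to 0.060 for Pfkp, -0.047 to 0.15 for Aldoa, -0.17 to 0.0081 for Pgk1, -0.23 to 0.025 for Pgam1, -0.19 to 0.054 for Eno1, -0.18 to 0.14 for Pdk2, -0.063 to 0.059 for Pdk3, -1.05 to 0.47 for Pdk4, -0.051 to 0.029 for Pdha1, -0.10 to 0.094 for Pfkfb4, -0.015 to 0.047 for Arnt, -0.035 to 0.080 for Egln2, -0.30 to 0.057 for Bnip3 and -0.083 to 0.57 for Ddit4. Over all genes, DESeq2 called 37 higher and 85 lower, limma without a mean-variance trend 2 higher and 2 lower, and limma with the replicate block 3 higher and 27 lower (0.192% of genes), against 1 and 4 as reported. With 1 library left out the counts ran from 1 to 256 higher and 0 to 174 lower, both highest without the third Mirc11-/- library, and those of the pathway genes from 0 to 4 higher and 0 to 1 lower. DESeq2 called 1 pathway gene lower. The cause of these differences was not tested. Same-numbered libraries deviated with correlations of 0.066, -0.063 and 0.097, and differently numbered ones with -0.133 to 0.074. These small values do not settle whether the replicate numbers pair the libraries. The replicate block called none of the 39 genes and none of the pathway genes. Genes under about 10 normalized counts, here Epas1 and Pdk4, could not be compared at this depth. The genotype differences in isoform share were recomputed 210 times, with each library left out or with reads not divided by length. All moved by less than the larger of the group SDs. Leaving out 1 of 3 libraries cannot shift a mean by that much, so only the refits with undivided reads could have come out otherwise.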
